A study of Mus musculus with 3 samples.

Results

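Bone morphogenetic proteins (BMPs) are secreted ligands of the TGF-β superfamily. They bind type I and type II receptors, which phosphorylate SMAD1, SMAD5 and SMAD9, and these enter the nucleus with SMAD4 and switch on early target genes such as the Id genes, whose products inhibit bHLH transcription factors. Extracellular antagonists such as gremlin and USAG-1 hold the ligands away from their receptors. In the developing palate, BMP ligands pass between epithelium and mesenchyme and are known for roles in shelf growth and in bone formation. The genes of this pathway described here, in the soft palate of mouse embryos, were chosen by symbol. They were 10 of the 32285 genes counted: the ligand genes Bmp2, Bmp3, Bmp4, Bmp5 and Bmp7, the antagonist genes Grem1 and Sostdc1, and the readout genes Id1, Id2 and Id3. Each symbol had 1 row in the deposited tables.

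The data were single-cell RNA-seq of C57BL/6 soft palate, dissected at E14.5 as the rear portion of the palate. The 2 control libraries came, by the study's methods, from littermates that carried floxed Tgfbr1 (Alk5) alleles and so had the type I TGF-β receptor. The single mutant library was Osr2-Cre;Alk5fl/fl, in which Cre follows the expression of Osr2, a transcription factor gene of palatal mesenchyme, so that the receptor gene is deleted there and not throughout the embryo. How many embryos entered each library was not given in the sources used here. With 1 mutant library no test of the genotype was possible, and the genotype, the dissection and the library cannot be told apart. Levels are given as CPM, the unique molecular identifiers (UMIs) of a gene per 1000000 UMIs of all cells of that type in 1 library. Each interval is an exact 95% Poisson interval, or an exact Clopper-Pearson interval for a share of cells, and covers counting error only. Because a 3′ count depends on the gene as well as on its level, levels were compared between cell types and libraries and not between genes.

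The libraries held 2816, 4067 and 8690 barcodes (control 1, control 2 and mutant) and 22624711, 27814907 and 63505144 UMIs, and 13250 cells were kept. The palatal mesenchyme, cut by at least 2 of 6 mesenchymal markers, held 1242, 2224 and 4060 cells, and the epithelium 211, 377 and 549. The libraries differed from each other before any result, and the most myogenic, myeloid and hemoglobin RNA in mesenchyme was found in control 1. In its mesenchyme the summed level of 9 myogenic markers was 97.7 CPM, against 21.6 in control 2 and 7.63 in the mutant, and that of 9 myeloid markers was 56.1, against 25.4 and 9.61. Hemoglobin was at 3868, 1096 and 1160 CPM in the same order. The mutant lay apart as well, lowest in epithelial markers (83.4, 43.7 and 15.3 CPM). It was highest in mural (50.0, 55.4 and 82.6 CPM) and cartilage markers (83.9, 87.9 and 118 CPM). The mesenchyme of control 1 also had 6.28% of cells with both Msx1 and Msx2, homeobox genes that respond to BMP. This share was 0.0899% in control 2 and 0.837% in the mutant. Results that rest on control 1 are therefore given with and without it. The libraries shared few barcodes (18, 34 and 49 by pair). Tgfbr1 was counted at 54.8, 60.3 and 47.2 CPM in the mesenchyme, which does not check the label, since a 3′ count need not fall on the deleted part of the gene. Osr2 was at 231, 324 and 103 CPM there.

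The mesenchyme was divided by markers, the first that applied counting, into Sp7-positive cells (153, 123 and 702; Sp7 marks osteoblast precursors), perimysial cells (299, 215 and 326; mesenchyme around the palatal muscles), Scx-positive cells (55, 200 and 422), midline cells (207, 772 and 506; Lsp1 or Wnt16), cells with Tfap2b or Eya4 (29, 79 and 176) and the remaining mesenchyme (451, 835 and 1926). Of the markers that did not cut the gate, 7 of 7 were higher in perimysial cells than in the rest of the mesenchyme in all 3 libraries, 4 of 6 in Sp7-positive cells and 2 of 3 in midline cells, where Shox2 was lower in all 3. In Scx-positive cells only 1 of 4 tendon markers was higher, and Tnmd, which defines mature tendon cells, was at 0, 0 and 1.20 CPM, so these cells are named by Scx alone. In the epithelium 5 of 5 further markers were higher. A further gate for cells with Msx1 and Msx2 held 48, 0 and 2 cells and was not compared.

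The proximal promoters of Bmp4 and Grem1, the members with the lowest mutant-to-control ratios in mesenchyme, are shown so that the genes can be placed. Each is the 250 bases before the RefSeq start, in the direction of the gene, in GRCm38.p6. Capitals mark GGCGCC, a motif of BMP-activated SMADs whose complement is the same, so that both strands were searched. It is present in 9.59% of the 32851 promoters of that length, so a match is a description only. RefSeq promoters were matched for 5 of the 10 members (Bmp4, Bmp5, Grem1, Id2 and Id3).
Bmp4, chr14:46390670-46390919, minus strand: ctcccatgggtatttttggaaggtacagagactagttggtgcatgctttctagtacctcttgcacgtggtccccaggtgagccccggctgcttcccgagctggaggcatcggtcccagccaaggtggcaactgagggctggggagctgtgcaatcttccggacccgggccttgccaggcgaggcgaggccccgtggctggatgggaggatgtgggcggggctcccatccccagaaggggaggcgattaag
Grem1, chr2:113758649-113758898, minus strand: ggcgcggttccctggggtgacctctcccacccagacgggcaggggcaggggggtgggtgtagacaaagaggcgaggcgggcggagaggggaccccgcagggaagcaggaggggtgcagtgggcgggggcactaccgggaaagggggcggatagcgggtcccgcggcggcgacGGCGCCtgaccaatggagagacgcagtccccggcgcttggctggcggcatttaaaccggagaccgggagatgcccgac
The Grem1 window holds GGCGCC once, 78 bases before the start, and the Bmp4 window holds none.

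Bmp4, a ligand with known roles in palate and tooth outgrowth, was counted at 77.4 CPM (95% interval 72.2 to 82.8) in the mesenchyme of control 1 and 85.3 CPM (80.5 to 90.4) in control 2. The mutant held 50.6 CPM (48.0 to 53.4). The controls lay near each other and the mutant lay below both. The mutant was 0.623-fold of the geometric mean of the controls, a log2 ratio of -0.68, and the controls differed by 0.14 on the same scale. A gene was counted as higher or lower by a rule of size: outside both controls, at least 1.5-fold from their geometric mean, and further from it than the controls were from each other, among genes with a mean of at least 10 CPM and at least 20 UMIs in all. By this rule Bmp4 was the 1 member of 10 that was lower in the mutant mesenchyme, where 4.86% of all 8418 compared genes were lower. No member of 10 was higher, where 1.54% of all genes were.

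**Figure D1:**
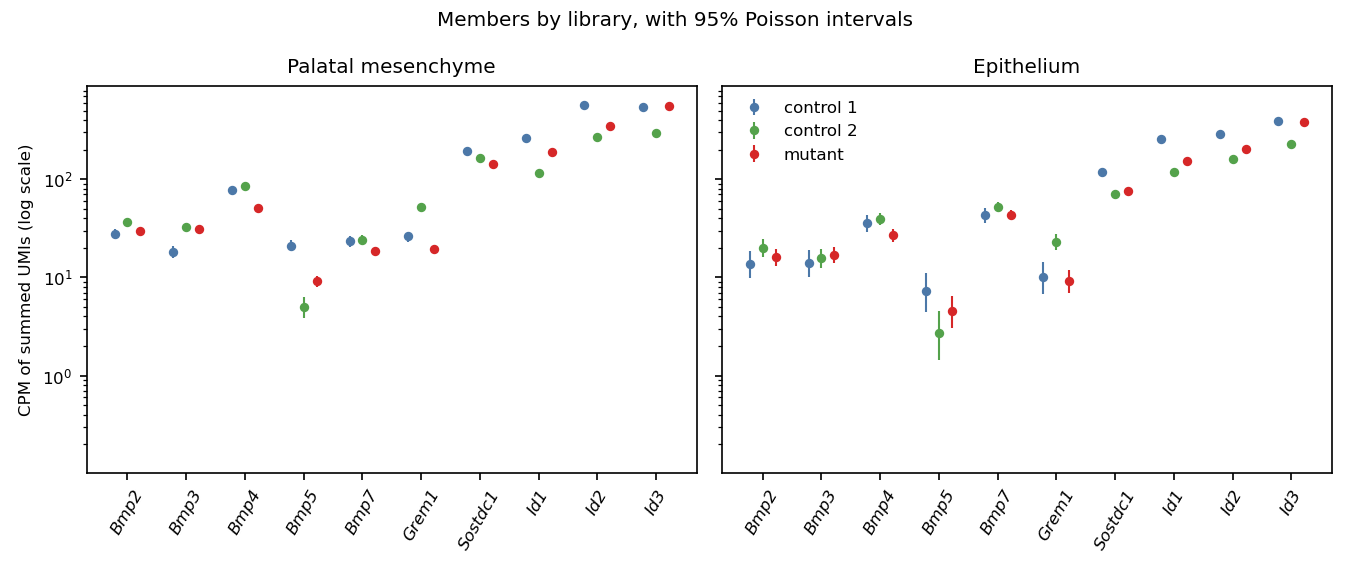
CPM of the 10 members (log axis) in palatal mesenchyme and in epithelium, by library, with exact 95% Poisson intervals as bars. In mesenchyme the mutant point for Bmp4 lies at 50.6 CPM, below 77.4 and 85.3 in the controls, and the points of control 1 for Id1 and Id2 lie above those of control 2 in both panels.

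The size of this difference depended on how the libraries were scaled. With TMM factors the log2 ratio of Bmp4 in mesenchyme was -0.55 and with median-of-ratios size factors -0.54, short of the 1.5-fold limit, so that no member passed in either direction. The median over all compared genes moved from -0.07 to 0.06 and 0.07 with these scalings. Relative to that median Bmp4 was at -0.61 with each of the 3. A scaling moves all genes nearly alike, so this agreement was fixed in advance and is no further check. The share of all calls that were higher moved as well, from 24.1% with total UMIs to 49.6% and 51.1%. Without control 1 the ratio was -0.75, and without control 2 it was -0.61. With a control left out, here and below, the rule was only a 1.5-fold difference from the other control. It was then looser, since no gap between controls entered it.

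Within the gates of the mesenchyme the mutant level of Bmp4 was below both controls in 5 of 6. In midline cells Bmp4 was at 145 CPM (128 to 163) and 111 CPM (102 to 121) in the controls, against 77.1 CPM (67.9 to 87.3) in the mutant, and the 3 intervals did not overlap. In Scx-positive cells it was at 92.6, 75.8 and 50.7 CPM. In the remaining mesenchyme it was at 80.5, 80.5 and 55.2 CPM. In perimysial cells it was at 56.4, 68.7 and 51.4 CPM, and in Sp7-positive cells at 38.8, 45.4 and 32.6 CPM. Cells with Tfap2b or Eya4 were the exception, at 82.8, 56.7 and 57.3 CPM. The rule of size was met in midline cells, with a log2 ratio of -0.72 where 7.66% of all genes were lower, and in Scx-positive cells, also at -0.72, where 7.59% were. Both calls held under the other scalings but not without control 1, where the log2 ratios were -0.53 in midline cells and -0.58 in Scx-positive cells, short of 1.5-fold. In Scx-positive cells the call was also lost when cells of more than 1 mesenchymal gate were left out (-0.44) and with the mean of per-cell CPM (-0.52). Over all 12 gates with at least 20 cells in each library, Bmp4 was lowest in the mutant in 11. The gates of a library share its RNA and are not replicates. Midline cells, the gate with the highest mean Bmp4, made up 16.7% and 34.7% of the mesenchyme in the controls and 12.5% in the mutant. With equal weight per mesenchymal gate, an alternative chosen after the values were seen, the Bmp4 log2 ratio in the whole mesenchyme was -0.52 and the call was lost. How far the shares of the gates enter the ratio of the whole mesenchyme was not tested.

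The level in myeloid cells, a blood lineage apart from the palatal cells, was used as a stand-in for free RNA. Doublets and transcripts of the myeloid cells themselves would count in it too, and these were not told apart. Bmp4 in myeloid cells was at 26.0 and 4.21 CPM in controls 1 and 2 and at 3.20 CPM in the mutant. When the myeloid level of the same library was taken off, an alternative chosen after the values were seen, 51.3, 81.1 and 47.4 CPM remained in the mesenchyme. The log2 ratio was then -0.44, against 0.66 from one control to the other, and the call was lost. In midline cells 119, 107 and 73.9 CPM remained, a log2 ratio of -0.61, and the call held. In Scx-positive cells the ratio was -0.54 and the call was lost, and in Sp7-positive and perimysial cells it turned to 0.36 and 0.12, the mutant then lying between the controls. With each cell thinned to 2000 UMIs, a Bmp4 UMI was found in 12.4% (10.6 to 14.3) of mesenchymal cells of control 1, 15.7% (14.2 to 17.3) of control 2 and 10.0% (9.07 to 11.0) of the mutant. Shares without thinning were 34.2%, 33.6% and 25.0%. In thinned myeloid cells the shares were 4.23%, 2% and 0.667%, at median depths of 7756, 5831 and 5346 UMIs before thinning, against 7838, 5208 and 5322 in mesenchyme. The share in mesenchyme was above that in myeloid cells in all 3 libraries. Thinning left out 5, 103 and 147 mesenchymal cells of fewer UMIs.

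Bmp2, a ligand known for its part in bone formation, was at 27.8, 36.5 and 29.7 CPM in the mesenchyme of control 1, control 2 and the mutant. The mutant lay between the controls. In perimysial cells it was at 16.0 (11.6 to 21.4), 27.3 (20.1 to 36.1) and 37.2 (30.8 to 44.7) CPM, above both controls. This log2 ratio of 0.84 met the rule of size, where 4.03% of all genes were higher and 6.32% lower. It was the 1 member of 10 that passed in perimysial cells, and without control 1 its log2 ratio was 0.45, short of 1.5-fold. In Sp7-positive cells the order was the other way, with 34.4, 31.7 and 26.1 CPM, which did not pass. Myeloid cells held 22.1, 4.21 and 15.0 CPM of Bmp2, in control 1 more than the perimysial cells of that library. With the myeloid level subtracted, -6.17, 23.0 and 22.3 CPM were left in perimysial cells. No ratio could be taken there because control 1 fell below 0, so this alternative is not among those counted next. The Bmp2 call in perimysial cells held under 8 of 14 alternatives, both other scalings among them (0.89). It was lost under 6: without control 1, with gates of 2 or of 4 markers, with mesenchyme cut at 3 of 6 markers, with the mean of per-cell CPM and with thinned libraries. The log2 ratios in those 6 ran from 0.45 to 1.04, above 0 in each.

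Bmp3, which encodes a BMP that inhibits other BMPs, was at 18.3, 32.9 and 30.8 CPM in mesenchyme, the mutant again between the controls. Without control 2 it passed as higher there, at 0.75, and without control 1 it did not pass. In cells with Tfap2b or Eya4 it was at 14.4, 15.1 and 31.9 CPM, from 4, 8 and 39 UMIs. This was the 1 member past the rule in that gate, with a log2 ratio of 1.11, where 4.00% of all genes were higher and 10.5% lower. The intervals there were wide (3.93 to 36.9, 6.53 to 29.8 and 22.7 to 43.7) and overlapped. In the remaining mesenchyme Bmp3 was at 16.3, 30.9 and 39.1 CPM, above both controls by less than the gap between them. It passed as higher there under TMM (0.95) and median-of-ratios scaling (0.97), and in midline cells as well (0.76 and 0.77). In cells with Tfap2b or Eya4 it passed under 15 of 15 alternatives, at 0.99 to 1.55. These largely reuse the same 4 and 8 control UMIs, so the count of alternatives does not make this call firm. The gap between the controls rests on the same few UMIs. The rule's limit on UMIs in all was met there only through those of the mutant.

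Bmp5 was the ligand whose controls lay furthest apart. It was at 21.1 CPM in the mesenchyme of control 1, 4.97 in control 2 and 9.13 in the mutant. In cells with Tfap2b or Eya4 it was at 57.6 (32.9 to 93.6), 1.89 (0.0479 to 10.5) and 7.37 (3.37 to 14.0) CPM. In the remaining mesenchyme it was at 33.6, 6.39 and 5.42 CPM. Control 1 was higher than control 2 in 11 of 12 gates, with a median fold of 2.82. Without control 1 the log2 ratio of Bmp5 in mesenchyme was 0.88, and without control 2 it was -1.21, each past 1.5-fold. In cells with Tfap2b or Eya4 the ratios were 1.96 and -2.97 in the same order. In Scx-positive cells Bmp5 was at 14.7, 2.19 and 21.3 CPM, from 7, 3 and 71 UMIs, and was compared only through the mutant level. The log2 ratio was 1.91 against 2.75 between the controls, and it did not pass. It passed as higher there with thinned libraries (2.18), with the myeloid level subtracted (3.39) and without control 1 (3.29). No difference between mutant and controls could be read from Bmp5 where the controls themselves differed by more.

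Bmp7, a ligand of many epithelia, was at 23.3, 24.2 and 18.7 CPM in mesenchyme. The mutant was below both controls, with a log2 ratio of -0.35 that did not reach 1.5-fold. In Sp7-positive cells it was at 19.9 (14.0 to 27.4), 29.1 (20.2 to 40.7) and 15.9 (13.2 to 19.0) CPM, a log2 ratio of -0.60. That was the 1 of 10 members lower in Sp7-positive cells, where 5.79% of all genes were lower and 2.18% higher. The interval of the mutant overlapped that of control 1, and the call was lost under 7 of 15 alternatives. These were the data without control 2 (-0.32), both other scalings, doublets kept, gates of 4 markers, mesenchyme cut at 3 of 6 markers, and the myeloid level subtracted (0.07). In perimysial cells the mutant was above both controls, at 13.5, 17.0 and 22.5 CPM, and did not pass, although under both other scalings it did, at 0.62. With cells of more than 1 mesenchymal gate left out it passed as lower, at -0.69.

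**Figure D2:**
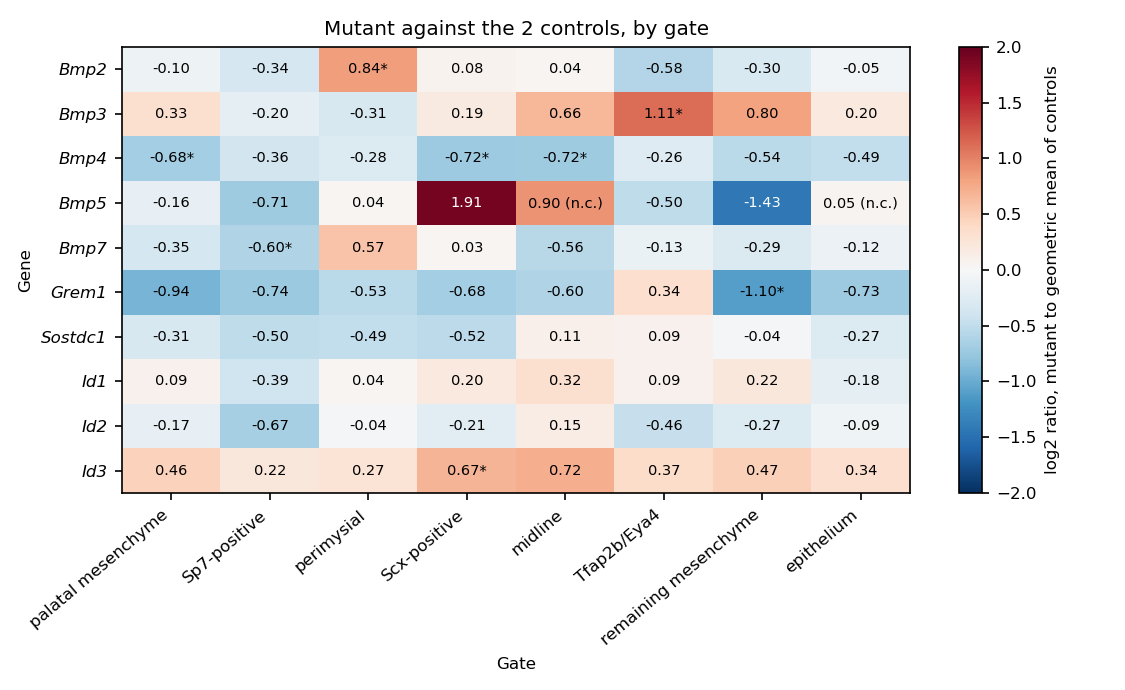
log2 ratio of the mutant to the geometric mean of the 2 controls for each member (vertical axis) in the whole mesenchyme, its 6 gates and the epithelium (horizontal axis), with blue below and red above 0. A star marks values past the rule of size and n.c. marks genes too low to be compared; Bmp4 is below 0 in every column, and Id3 is above 0 in every column with a star only in Scx-positive cells.

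Grem1, the gene of the BMP antagonist gremlin 1, was at 26.1 CPM (23.2 to 29.3) in the mesenchyme of control 1, 52.7 (48.9 to 56.7) in control 2 and 19.4 (17.8 to 21.1) in the mutant. The mutant was below both, but the controls differed by 1.01 on the log2 scale, more than the mutant-to-control log2 ratio of -0.94, so the rule of size was not met. Without control 1 the log2 ratio was -1.44, and without control 2 it was -0.43. In the remaining mesenchyme Grem1 was at 27.9 (22.6 to 34.2), 47.5 (40.9 to 54.8) and 17.0 (14.3 to 19.9) CPM. There it met the rule, at a log2 ratio of -1.10, with -0.95 under TMM and -0.93 under median-of-ratios scaling, -1.49 without control 1 and -0.72 without control 2. In that gate 8.03% of all genes were lower and 1.16% higher. Over the gates, Grem1 was lowest in the mutant in 4 of 6. With the myeloid level subtracted, 20.1, 46.1 and 15.9 CPM remained and the gap between the controls was the larger. The share of thinned mesenchymal cells with a Grem1 UMI was 4.45% (3.37 to 5.75), 9.38% (8.17 to 10.7) and 3.27% (2.74 to 3.88), against 14.3%, 19.8% and 10.1% unthinned. In thinned myeloid cells it was 1.41%, 0% and 0%, the upper limits of the intervals being 7.60%, 3.62% and 2.43%.

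Sostdc1, the gene of USAG-1, an antagonist of BMPs that also acts on WNT signaling, was at 195, 163 and 143 CPM in mesenchyme. The mutant was below both controls by a log2 ratio of -0.31, short of 1.5-fold. The mutant was below both in perimysial cells (204, 135 and 118 CPM), Scx-positive cells (210, 170 and 132 CPM) and Sp7-positive cells (96.3, 89.1 and 65.5 CPM). In midline cells it was between them, at 237, 176 and 220 CPM. Myeloid cells of control 1 held 80.7 CPM of Sostdc1, against 5.61 in control 2 and 13.9 in the mutant. With that level subtracted, 114, 157 and 129 CPM remained in the mesenchyme and the mutant lay between the controls.

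The Id genes separated the controls from each other more than the mutant from the controls. In mesenchyme Id1 was at 266 CPM (257 to 276), 117 CPM (111 to 123) and 188 CPM (183 to 193) over control 1, control 2 and the mutant. Id2 was at 576, 270 and 350 CPM. Id3 was at 550 CPM (536 to 564), 297 (288 to 307) and 556 (547 to 565). The mutant thus lay between the controls for Id1 and Id2 and beside control 1 for Id3. Over the 12 gates control 1 was higher than control 2 in 12 for Id1, 12 for Id2 and 11 for Id3, by median folds of 2.17, 1.89 and 1.68. Without control 1 the log2 ratios in mesenchyme were 0.69, 0.38 and 0.90, and without control 2 they were -0.50, -0.72 and 0.01. The direction for Id1 and Id2 thus turned on which control was used.

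Id3 was above 0 in the log2 ratio in all 6 gates of the mesenchyme, from 0.22 to 0.72. It was above both controls in 3 of the 6. In Scx-positive cells it was at 467, 307 and 604 CPM and met the rule of size, at 0.67, where 3.58% of all genes were higher. The call was lost without control 2, at 0.37, and with mesenchyme cut at 3 of 6 markers, at 0.62. In midline cells it was at 389, 227 and 491 CPM, and no member was higher there by the rule, where 1.70% of all genes were. Id3 did pass there with TMM factors, at 0.82, and without control 1, at 1.11. In perimysial cells it was at 595, 420 and 604 CPM, the mutant within the interval of control 1. The thinned share of mesenchymal cells with an Id3 UMI was 58.4%, 36.6% and 62.3%, and in myeloid cells it was 32.4%, 8% and 15.3%. Unthinned, the shares in mesenchyme were 89.8%, 61.2% and 84.7%.

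In the epithelium as a whole 9 of the 10 members could be compared. None was higher or lower by the rule of size, where 1.71% of all 8790 genes were higher and 5.77% lower. Bmp4 was at 35.8 CPM (29.3 to 43.4), 39.6 (34.2 to 45.6) and 26.8 (23.0 to 31.1), below both controls at a log2 ratio of -0.49. Grem1 was at 9.99, 23.1 and 9.14 CPM, below both controls by less than the gap between them. Bmp7 was at 43.1, 52.2 and 43.7 CPM and Bmp3 at 14.1, 15.7 and 17.1 CPM. The Id genes kept the order they had in mesenchyme for Id1 (256, 118 and 154 CPM) and Id2 (287, 162 and 203 CPM), with the mutant between the controls. Bmp5 was too low to compare, at 7.24, 2.68 and 4.57 CPM. In the Krt6a-positive part of the epithelium Bmp3 did meet the rule as higher, at 6.04, 12.2 and 18.5 CPM from 3, 17 and 29 UMIs. The log2 ratio was 1.11 against a gap of 1.01 between the controls, and the intervals overlapped. The mean of the controls alone was below 10 CPM, so Bmp3 was compared there only through the mutant level. The share of all genes past the rule in that part was not counted.

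Cell types were set side by side within each library. Bmp7 was the 1 ligand highest in the epithelium. It was at 42.3, 46.5 and 54.2 CPM in Krt6a-positive cells, with a keratin of the surface layer, and at 43.2, 54.5 and 40.4 CPM in Krt6a-negative cells. The ranges of these gates overlapped each other but not that of the next, midline mesenchyme, at 37.1, 32.0 and 23.4 CPM. The epithelium was 1.85-, 2.15- and 2.34-fold of the mesenchyme in control 1, control 2 and the mutant. The other ligands and both antagonists were lower in epithelium than in mesenchyme in 3 of 3 libraries, Bmp4 at 0.463-, 0.464- and 0.530-fold and Grem1 at 0.383-, 0.438- and 0.471-fold. The 3 libraries are too few for a test of a direction, so these are given as counts.

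**Figure D3:**
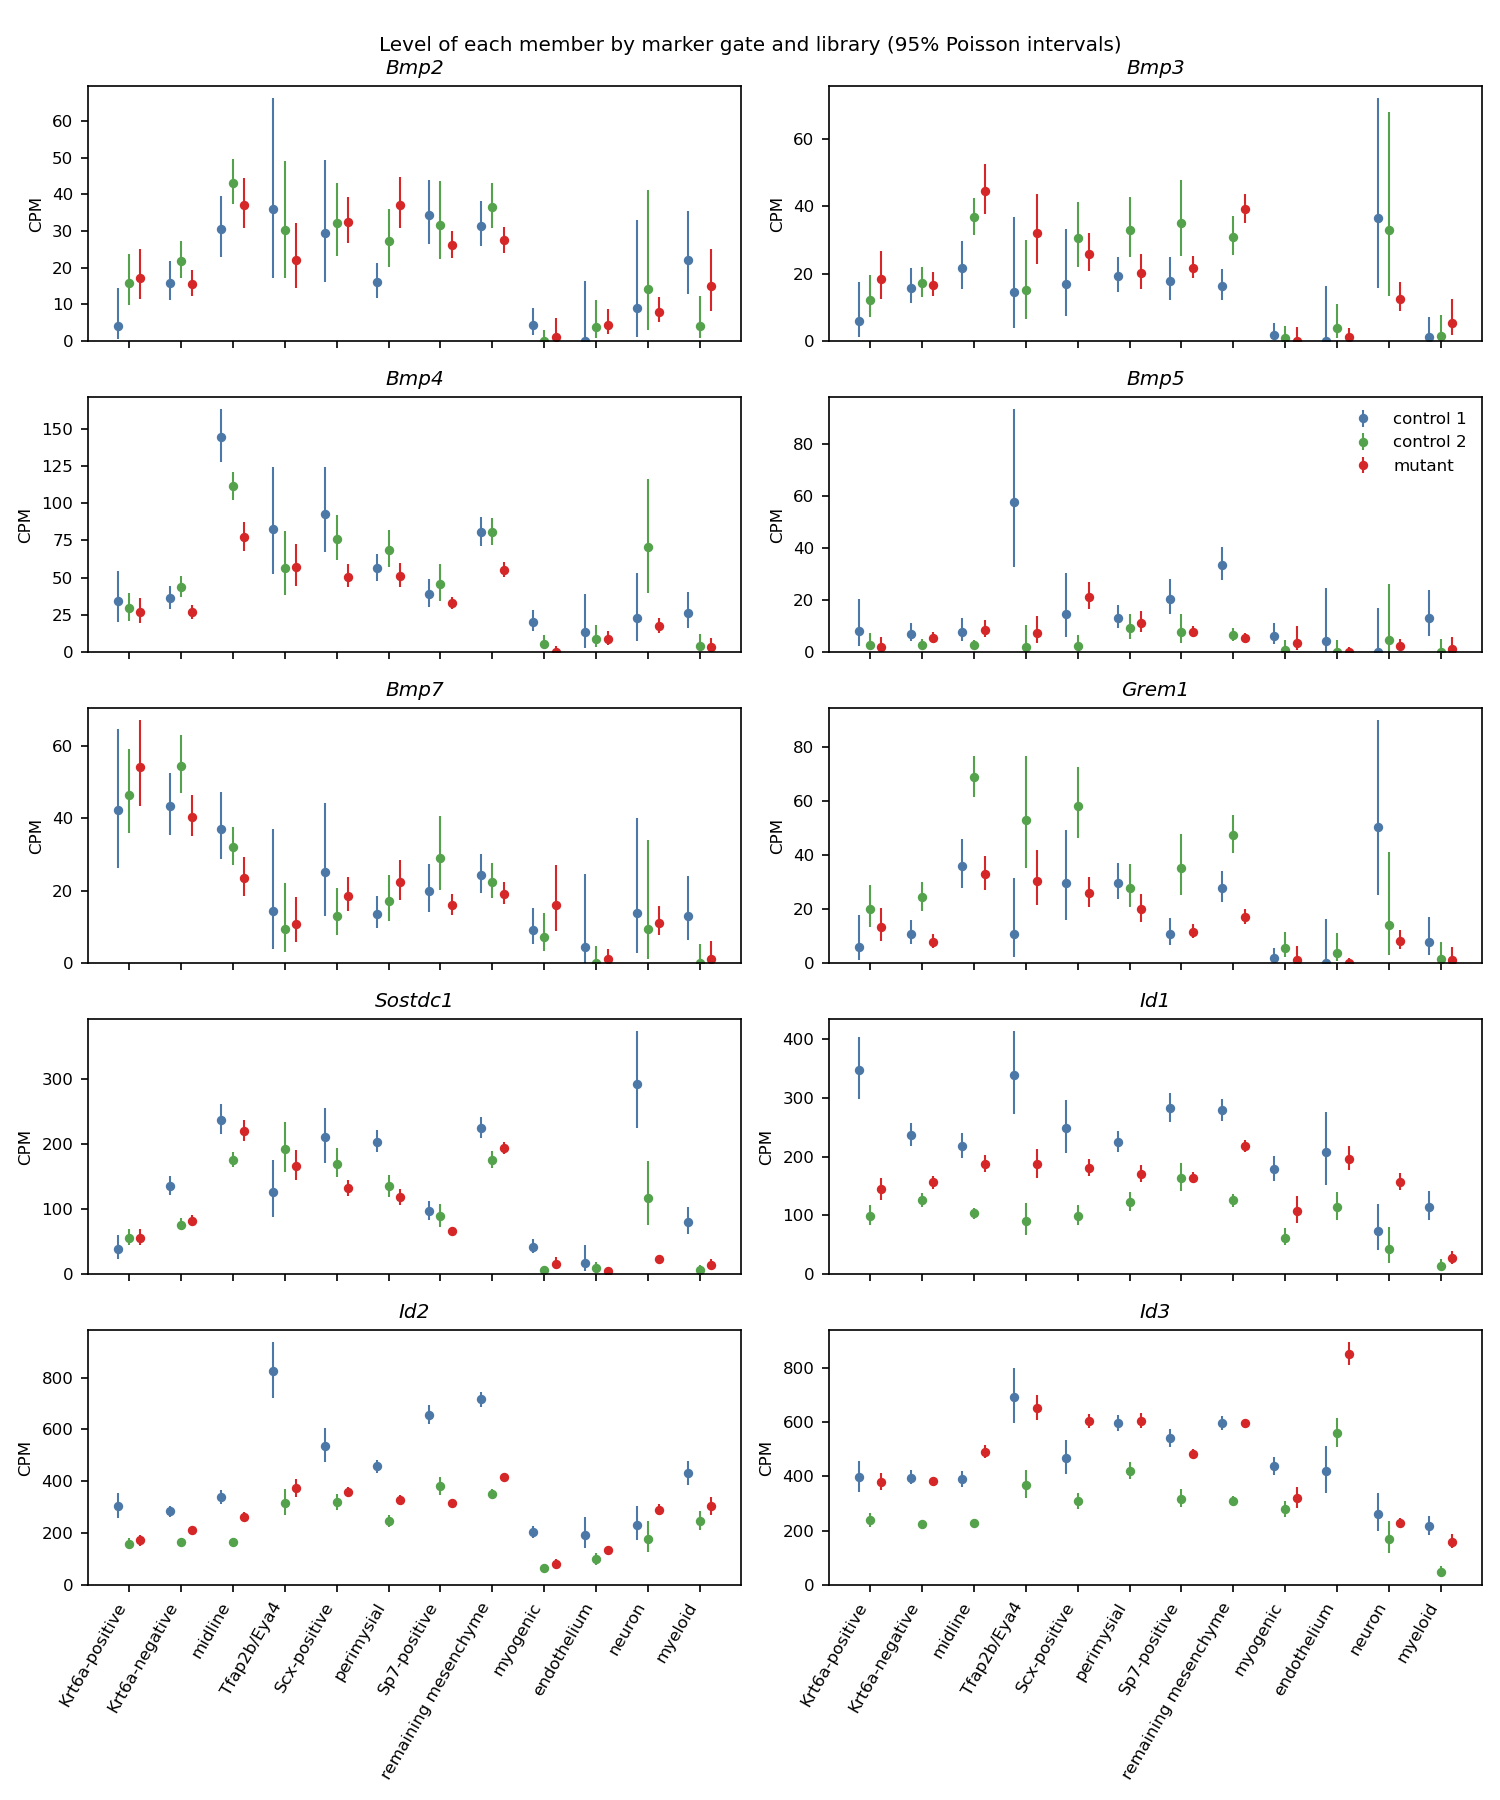
CPM (linear axes from 0) of each member by marker gate, one panel per gene, with 1 point per library and exact 95% Poisson intervals. Bmp7 is highest in both epithelial gates, Bmp4 in midline mesenchyme, and the points of control 1 for Id1 and Id2 stand above those of control 2 in every gate.

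Midline mesenchyme held the highest mean level of Bmp2, Bmp3, Bmp4, Grem1 and Sostdc1 among the 12 gates. Its ranges overlapped those of the next gate for each of the 5 genes. Cartilage cells, too few to be ranked (8, 7 and 136), held Bmp2 at 101, 39.2 and 45.9 CPM. In midline cells it was at 30.5, 43.2 and 37.2 CPM. Against the rest of the mesenchyme of the same library, Bmp4 in midline cells was 2.26-, 1.56- and 1.64-fold in control 1, control 2 and the mutant. Grem1 was 1.49-, 1.57- and 1.87-fold, and Bmp7 was 1.81-, 1.60- and 1.29-fold. Bmp2, Bmp3 and Sostdc1 were also higher in 3 of 3 libraries, by 1.12- to 1.65-fold. The Id genes went the other way. Id2 in midline cells was 0.544-, 0.508- and 0.724-fold of the rest, and Id3 was 0.668-, 0.677- and 0.870-fold. Id1 was 0.792-, 0.836- and 0.999-fold, so that in the mutant it was level with the rest of the mesenchyme.

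**Figure D4:**
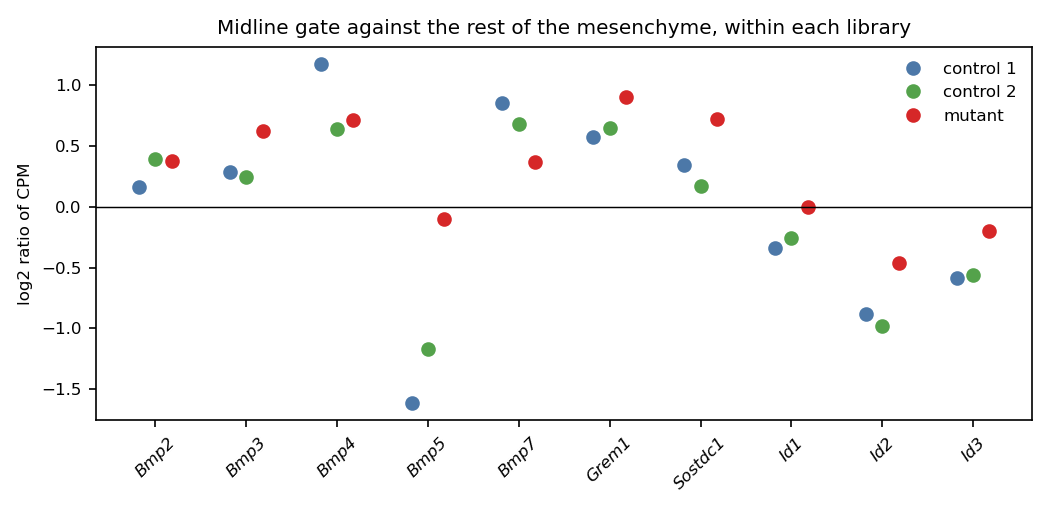
log2 ratio of the CPM in midline cells to that in the rest of the mesenchyme, within each library, for the 10 members. The points of Bmp2, Bmp3, Bmp4, Bmp7, Grem1 and Sostdc1 lie above 0 in 3 of 3 libraries and those of Bmp5, Id1, Id2 and Id3 below it, with Id1 of the mutant next to 0.

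Sp7-positive cells were the reverse of the midline for the ligand Bmp4 and both antagonists. Bmp4 was lower there than in the rest of the mesenchyme in 3 of 3 libraries, by log2 ratios of -1.14, -0.97 and -0.82. Grem1 was lower by -1.44, -0.63 and -0.95 and Sostdc1 by -1.16, -0.93 and -1.41. Id1 and Id2 in these cells were above the rest of the mesenchyme in both controls and below it in the mutant. For Id2 the values were 657, 381 and 316 CPM, with 0.23 and 0.56 in the controls and -0.21 in the mutant on the log2 scale. Id1 was at 283, 164 and 164 CPM, with 0.11, 0.55 and -0.26. The mutant held a larger share of Sp7-positive cells in its mesenchyme, 17.3%, against 12.3% and 5.53%.

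Among the 12 gates with at least 20 cells in each library, Id3 had its highest mean level in endothelium. BMP signals through ALK1 are a known feature there, and Id3 was at 419 (339 to 512), 560 (509 to 614) and 851 (810 to 895) CPM. In 2 of 3 libraries this was above the mesenchyme. The mutant was above both controls in endothelium and met the rule of size there as higher. The share of all genes past the rule in endothelium was not counted. The control 1 value rests on 21 cells. Glial cells, too few to be ranked (10, 28 and 157), held more Id3 than endothelium, at 589, 583 and 887 CPM. Bmp2, Bmp3, Bmp5, Bmp7 and Grem1 were at 0 to 4.41 CPM in endothelium in each library, Bmp4 at 8.81 to 13.2 and Sostdc1 at 4.40 to 17.6. Id2 was the only Id gene with a level in myeloid cells near that of mesenchyme, at 431, 245 and 303 CPM, with mesenchyme 1.10- to 1.34-fold of it.

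Across the 36 points of 12 gates and 3 libraries, the gene whose log2 level was most like that of Bmp4 was Meis2 (Pearson r = 0.94), followed by S1pr3 (0.93) and Barx1 (0.92). Lrrtm1 (0.91) was nearest to Grem1. For Sostdc1 they were Col3a1 (0.94), Wnt5a (0.94) and Twist2 (0.93). Adamts2 (0.89) was nearest to Bmp2, Col11a1 (0.88) to Bmp3, Tpbg (0.88) to Bmp7 and Spout1 (0.77) to Bmp5. Id1 and Id3 were near each other (0.84), while Id2 was at 0.43 with Id1 and 0.27 with Id3. Points from 1 library share its depth and free RNA, and these values are descriptions.

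Of 40 other genes of the pathway, 23 were compared in the mesenchyme, and 5 were lower in the mutant and none higher, where 4.86% and 1.54% of all genes were, with a median log2 ratio of -0.13 against -0.07 over all genes. Antagonists and modulators of ligand binding made up 3 of the 5. Nbl1, a secreted antagonist, was at 166, 94.1 and 48.2 CPM. Fst, the gene of follistatin, which binds activins and some BMPs, was at 36.8, 19.8 and 14.1 CPM. Twsg1, which modulates chordin, was at 54.6, 64.1 and 38.9 CPM. That the mutant was the lowest library in each of these follows from the rule by which they were named. Fstl1, which encodes a follistatin-like protein, was at 593, 712 and 478 CPM, below both controls by a log2 ratio of -0.44. In the mutant, noggin (6.87, 2.52 and 3.12 CPM) and Chrdl1 (5.22, 6.89 and 5.46 CPM) lay between the controls. Chordin (6.42, 5.71 and 3.96 CPM) was below both. These genes were below 10 CPM and not compared. Bmper, which encodes an extracellular modulator of BMPs, went the other way. It was too low to compare in the whole mesenchyme (7.97, 6.45 and 13.1 CPM, the mutant above both controls). In perimysial cells it was higher by the rule (4.61, 7.95 and 25.0 CPM), where 4.03% of all genes were. Both controls were below 10 CPM there, so it was compared only through the mutant level. This call was not tried under the alternatives.

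**Figure D5:**
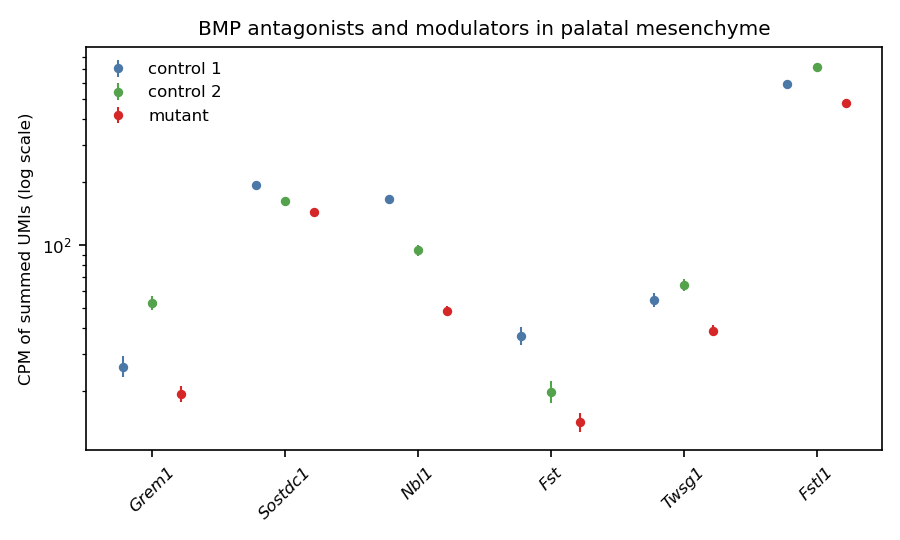
CPM (log axis) of 6 genes of BMP antagonists and modulators in palatal mesenchyme, by library, with exact 95% Poisson intervals. The mutant is the lowest library for each of these 6, with Nbl1 at 166 and 94.1 in the controls and 48.2 in the mutant. Bmper, Nog and Chrdl1, too low to compare and not lowest in the mutant, are not plotted.

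The other lower genes of the pathway were Rgma (36.2, 39.6 and 21.3 CPM) and Rgmb (29.8, 41.7 and 20.5 CPM), which encode BMP co-receptors. Among the receptors compared, Bmpr1a and Bmpr2 lay between the controls, with Bmpr1a at 69.8, 82.7 and 76.1 CPM and Bmpr2 at 38.2, 53.6 and 49.2 CPM. Bmpr1b (3.67, 2.52 and 1.91 CPM) and Acvrl1 (6.87, 6.67 and 5.32 CPM), below both controls, were too low to compare. Between the controls lay also the signal carriers Smad5 (53.0, 75.2 and 63.6 CPM) and Smad4 (34.3, 45.7 and 41.0 CPM), while Smad1 lay above both, at 42.5, 59.3 and 61.8 CPM. Among the other readouts Msx1 (57.8, 15.9 and 18.8 CPM) and Dlx5 (63.7, 15.2 and 20.2 CPM) were high in control 1 alone. Msx2 was as high in the mutant as in control 1 (25.4, 8.67 and 25.2 CPM), and Bambi, which encodes a pseudoreceptor, was above both controls (30.6, 17.5 and 35.9 CPM). Neither passed with both controls, and without control 1 both were higher, at 2.91-fold and 2.05-fold. Without control 2 neither Msx2 nor Bambi passed, at 0.994-fold and 1.17-fold, while Msx1 and Dlx5 were lower, at 0.325-fold and 0.317-fold. With TMM or median-of-ratios scaling 3 genes of the pathway stayed lower (Nbl1, Rgma and Rgmb), Fst and Twsg1 falling short of the rule. Fst was not lower by 1.5-fold without control 1, nor were Twsg1 and Rgmb without control 2. In the epithelium, where 1.71% of all genes were higher and 5.77% lower, 23 were compared, with Gdf10 (9.65, 10.1 and 16.9 CPM) and Smad1 (36.2, 46.4 and 63.5 CPM) higher and Nbl1 (101, 66.0 and 52.1 CPM) lower. Nbl1 lost its call there with TMM factors (-0.53), with median-of-ratios factors (-0.54) and without control 1 (-0.34), and Smad1 lost its call without control 1 (0.45). Gdf10 was compared in the epithelium only through the mutant level, since the mean of its controls was below 10 CPM.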

How the data were processed

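The authors aligned the reads and deposited, for each library, a matrix of raw UMI counts per gene and barcode, not normalized. The labels and the matrix header name Cell Ranger 4.0.0, while the submitters' processing notes name 3.1.0, with build mm10, and 3′ v2 reagents of 10x Genomics. Members and lists were chosen with earlier results of these data known.

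Cells were required to have 500 detected genes or more, with mitochondrial transcripts at 10% of UMIs or less, and the highest Scrublet scores were left out at a rate of 0.8% per 1000 barcodes of the library (63, 132 and 604 cells, Scanpy 1.11.5), since the threshold Scrublet set itself marked 0 cells. A cell type was cut by at least 3 markers of its list (cartilage 4), none of them a member. Cells of several gates (83, 39 and 182) or of none (179, 652 and 1469) were left out of every type, and 230, 695 and 1250 mesenchymal cells lay at the cut of exactly 2 markers. UMIs were summed per gate and library and divided by the total. Before logarithms, 3 UMIs stood in for a count of 0. No count model was fitted, because the mutant had 1 library. The rule of size was tried on simulated data, with planted changes larger than any member call as reported and little spread between libraries. The real controls lay further apart for several members, so the trial does not gauge these calls. The named genes were the 10 members, the pathway genes past the rule, the genes most like each member, and further pathway genes given for context after their values were seen. TMM factors came from edgeR 4.0.16 and median-of-ratios factors from DESeq2 1.42.0. Gene positions come from GENCODE for GRCm38, which matched 32158 of 32285 identifiers. Intervals cover counting error only. A gene of the pathway list is not reported here.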

Additional observations from a re-analysis of the deposited data

Results flagged for a closer look

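Over the 6 mesenchymal and 2 epithelial gates, in 6 cases the mutant passed the rule of size in one gate and lay beyond both controls the other way in another. The difference between the gates was not tested, and the values are differences of log2 ratios. For Bmp2 the perimysial ratio (higher) exceeded that of Sp7-positive cells by 1.18, of cells with Tfap2b or Eya4 by 1.41, of the remaining mesenchyme by 1.14 and of Krt6a-negative epithelium by 1.08, in each of which the mutant was below both controls. For Bmp7 the ratio in Sp7-positive cells (lower) differed by -1.17 from that in perimysial cells and by -0.89 from that in Krt6a-positive epithelium, where the mutant was above both controls. Without the cells that passed more than 1 mesenchymal gate, Bmp7 in perimysial cells was lower in the mutant, at -0.69, so the contrast between gates was lost, while Bmp2 there stayed higher, at 2.82-fold. The Bmp2 call in perimysial cells was lost under 6 of 14 alternatives, and that of Bmp7 in Sp7-positive cells under 7 of 15. All the Bmp2 cases rest on that perimysial call and all the Bmp7 cases on that Sp7-positive call, so they are not separate results. The share of all genes with such cases is not given here. With groups of 1 or 2 libraries, no library was tested for its distance from others of its group.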

How the results depend on the processing

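Under the alternatives to the processing, the count of members lower in the mutant mesenchyme was 1 as reported, 0 with TMM factors, 0 with median-of-ratios size factors, 2 with the libraries thinned to the shallowest, and 2 to 3 when either control was left out. It was 0 with equal weight per mesenchymal gate (Bmp4 at -0.52) and 0 with the myeloid level subtracted, both chosen after seeing the data. The count of members higher there was 0 as reported and 1 to 3 when either control was left out. In the epithelium the count of lower members was 0 as reported, 3 with a gate of 2 markers, 2 with the mean of per-cell CPM and 1 to 2 without a control, and the count of higher members was 0 as reported and 0 to 1 without a control. Over the 60 pairs of member and mesenchymal gate, 4 were lower and 3 higher as reported, and Bmp5 in midline cells was too low to compare. Of all genes, 5.79% to 10.5% were lower and 1.16% to 4.03% higher in these gates. The lower pairs numbered 8 with cells of more than 1 mesenchymal gate left out, 9 with a gate of 2 markers, 7 with the mean of per-cell CPM, 2 with the myeloid level subtracted and 8 to 15 without a control. The higher pairs numbered 7 with TMM factors, 6 with median-of-ratios factors and 7 to 13 without a control. The counts without a control follow the looser rule of 1.5-fold alone. They cannot be set against those as reported, and the share of all genes past that rule is not given here. The causes were not tested, apart from the scalings, which moved all genes. The log2 ratio of Bmp4 in mesenchyme was below 0 under 15 of 15 alternatives, from -0.75 to -0.44, as was that of Grem1, from -1.44 to -0.43, and that of Id3 was above 0 under 14 of 14, from 0.01 to 0.90. No paired analysis was possible because there was 1 mutant library. Of the 7 pairs called as reported, the call was lost under 0 to 7 alternatives. Depth limits pairs of few UMIs, such as Bmp3 in cells with Tfap2b or Eya4, from 4 and 8 UMIs in the controls.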
